A study of Mus musculus with 10 samples.

Results

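The genes described here carry out or control the burning and the storage of fatty acids in liver. The list holds 39 genes, each chosen by name and each taken by its probe set with exactly 1 gene symbol, and 38 of them were measured among the 22180 genes of the arrays. Cideb, a lipid droplet gene of hepatocytes, shares its probe set with Nop9 and was not analysed here. Each measured member had a single such probe set. The members fall into 5 regulators and secreted factors, 3 genes of the carnitine shuttle, 12 of mitochondrial oxidation, 4 of peroxisomal oxidation, 1 ketone body enzyme, 2 acyl-CoA thioesterases, 9 measured genes of the lipid droplet and 2 of fatty acid uptake and binding.

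The RNA came from portal tracts, the regions of the liver where a bile duct lies beside branches of the portal vein and hepatic artery, which were dissected from 1-week-old mouse liver with a laser, 12 to 20 of them per replicate. Tracts of 5 control samples, whose strain is given as C57Bl/6J, were compared with those of 5 Jag1+/-Rfng+/- samples, heterozygous at the gene of the Notch ligand Jagged1 and at that of Radical fringe, an enzyme that adds sugars to Notch receptors. The sources do not state the strain of the Jag1+/-Rfng+/- mice, the type of their mutant alleles or the genotype of the controls beyond that word. The labels do not tie each sample to a mouse of its own, so p-values here reflect sample-to-sample spread, which may be technical.

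Fatty acids are burned mainly in mitochondria, which they enter as carnitine esters, and there they are shortened by a repeating set of dehydrogenases, hydratases and thiolases whose electrons pass through the electron transfer flavoprotein. Peroxisomes shorten the longest chains with their own enzymes, and liver mitochondria turn much of the product into ketone bodies, a main fuel of suckling mammals, whose milk diet is rich in fat. The nuclear receptor PPAR-alpha, encoded by Ppara, switches many of these genes on when fatty acids reach the liver. Fatty acids that are not burned are stored as triglyceride in lipid droplets, which perilipins coat, CIDE proteins enlarge and lipases break down.

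The arrays give log2 values on a scale of their own for each probe set, so levels are compared here between arrays and never between genes. Arrays have no read depth, and their number limits the precision. The array medians lay between 3.22 and 3.30, and pairs of arrays correlated across probe sets with r from 0.956 to 0.987. Jag1+/-Rfng+/- replicate 5, whose sample name carries the suffix excl, stood apart from the others, which correlated among themselves at 0.969 or more, and it was kept. A gene that is absent can still read 1.82 to 2.91, which is the range of Xist and of Y-linked genes on arrays of the other sex, with 2 Xist-high arrays in each group. Rfng was lower in Jag1+/-Rfng+/- by 0.46 log2 with no overlap between groups (two-sided exact permutation test, p = 0.00794, its lowest possible value with 5 arrays in each group). Jag1 was lower by 1.33 log2, with an exact permutation p of 0.0556. Leaving out control replicate 4 gave Jag1 a difference of -1.61 (exact permutation p = 0.0159). Leaving out control replicate 5 gave -1.53 (exact permutation p = 0.0476). The probes may lie outside the mutated parts of both genes, so this is no firm check of the labels. All 17 measured hepatocyte markers read above the range of absent genes on all 10 arrays, so the captured tracts held hepatocyte RNA. In such bulk RNA, fewer cells of a type and less RNA per cell cannot be told apart.

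In Jag1+/-Rfng+/- tracts 7 of the 9 lipid droplet genes and all 5 regulators and secreted factors read higher, with median log2 differences of 0.27 and 0.44, while 10 of the 12 mitochondrial oxidation genes read lower, with a median of -0.13. With neither Jag1+/-Rfng+/- replicate 1 nor 5, 6 of these 12 mitochondrial genes read lower and 6 higher, with a median of -0.01. Ppara and Plin3, at 0.01, turned sign when arrays were centred on their medians. The 5 members with an unadjusted limma p under 0.05 all read higher: Cidec, Angptl4, Plin2, Acot2 and Plin4. After Benjamini-Hochberg adjustment over all genes 0 of the 38 members passed, beside 0.00902% of all genes. At p under 0.05 there were 5 members by unadjusted limma and the same 5 by the exact permutation test. The permutation test was run for named genes only, so it has no share over all genes. The lowest limma adjusted p was 0.416, for Cidec. Over all genes 6.76% had an unadjusted p under 0.05, 2.98% reading higher and 3.79% lower. Among the members the share was 13.2%, all higher. The members were chosen with earlier results of these data known, so these shares are a description and were not tested. A difference of at least 1.5-fold was found for 2 members, Cidec and Angptl4, and for 2.16% of all genes. Of all 38 members 23 read higher and 15 lower, with a median log2 difference of 0.03, beside a median of -0.01 over all genes and 48.5% of all genes higher. With neither Jag1+/-Rfng+/- replicate 1 nor 5, 3 members had such a p (Cidec, Angptl4 and Plin2), 7.89% of them beside 6.17% of all genes, and with the mean of the portal fibroblast markers as a covariate 2 had one (Angptl4 and Hadhb, which was lower), 5.26% of the members beside 7.61% of all genes.

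**Figure D1:**
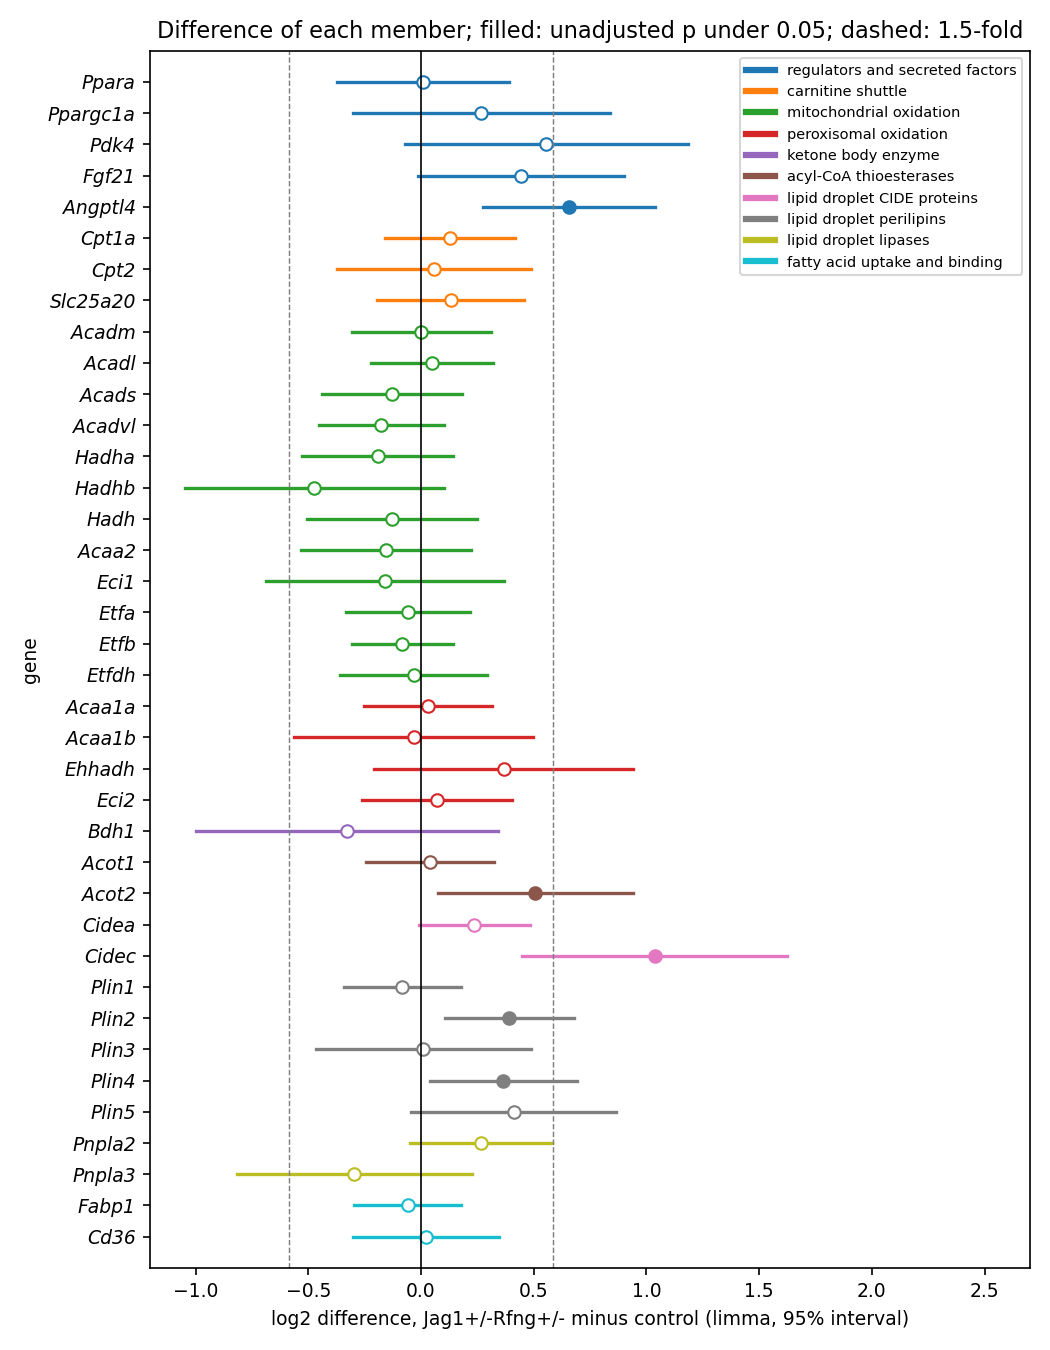
Log2 difference of each of the 38 measured members, Jag1+/-Rfng+/- minus control, with the limma 95% interval on the horizontal axis; each row is a gene, coloured by its role, filled points have an unadjusted p under 0.05 and dashed lines mark 1.5-fold. The filled points, Cidec, Angptl4, Plin2, Acot2 and Plin4, lie to the right of 0, while 10 of the 12 mitochondrial oxidation genes lie to the left with intervals that cross 0.

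The promoter windows of RefSeq (GRCm38.p6) put sequence beside these values. PPAR-alpha binds with its partner RXR to a direct repeat, searched for here as 2 copies of AGGTCA with 1 base of any kind between them. In the following 250 bases before the start of transcription, written 5′ to 3′ on the strand of the gene, capitals mark the best match to this repeat on either strand where it has at most 2 mismatches outside the free base. Plin2 and Cidec are shown because they are droplet genes that read higher, Cidec with its 2 annotated starts, and Fabp1 because its window holds the closest match among the members while its level differed little.
Plin2, chr4:86670060-86670309, minus strand: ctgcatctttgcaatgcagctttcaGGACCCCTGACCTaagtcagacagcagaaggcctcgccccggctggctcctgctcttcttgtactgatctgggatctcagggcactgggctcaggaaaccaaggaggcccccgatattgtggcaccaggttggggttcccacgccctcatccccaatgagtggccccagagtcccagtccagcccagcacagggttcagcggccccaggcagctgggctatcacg
Cidec, start farther upstream, chr6:113435761-113436010, minus strand: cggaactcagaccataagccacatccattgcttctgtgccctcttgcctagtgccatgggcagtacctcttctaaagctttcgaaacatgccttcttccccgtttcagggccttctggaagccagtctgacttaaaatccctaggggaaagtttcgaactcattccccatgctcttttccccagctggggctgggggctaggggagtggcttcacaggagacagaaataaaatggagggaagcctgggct
Cidec, start farther downstream, chr6:113434765-113435014, minus strand: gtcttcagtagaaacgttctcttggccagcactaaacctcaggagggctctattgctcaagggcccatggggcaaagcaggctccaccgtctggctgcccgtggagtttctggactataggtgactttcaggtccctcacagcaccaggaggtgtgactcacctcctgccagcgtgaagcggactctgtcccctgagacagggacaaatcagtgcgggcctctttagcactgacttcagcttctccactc
Fabp1, chr6:71199629-71199878, plus strand: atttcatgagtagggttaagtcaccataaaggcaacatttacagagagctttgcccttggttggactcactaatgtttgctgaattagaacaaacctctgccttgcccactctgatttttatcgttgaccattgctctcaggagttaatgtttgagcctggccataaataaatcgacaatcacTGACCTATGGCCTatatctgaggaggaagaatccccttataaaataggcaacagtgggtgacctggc

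Windows of 300 bases, from 250 before to 50 after the start, were found for 36 of the 39 listed genes, 39 windows in all. Acaa2, Angptl4 and Cidea had none in the table. Of the 39 windows 5 held the repeat with at most 2 mismatches, 12.8%, beside 3.86% of the 32851 windows of all genes. They belong to Fabp1 (AGGCCATAGGTCA, 1 mismatch), Plin2 (AGGTCAGGGGTCC), Cd36 (AAGTCAGAGGCCA), Etfa (AGGGCAAAGGTAA) and Slc25a20 (AGGTGAAAGGTCG), each with 2 mismatches except the first and each written on the strand that reads as the repeat. A single AGGTCA, which can be part of such a repeat, stood in 8 of the 39 windows, 20.5%, beside 16.3% of all windows. Plin2 was 1 of the 5 genes that read higher at an unadjusted p under 0.05, and the other 4 genes with the repeat, Fabp1, Cd36, Etfa and Slc25a20, differed by -0.06, 0.02, -0.06 and 0.13 log2. Both Cidec windows and those of Acot2 and Plin4 held no match within 2 mismatches, which says only that these letters are not in these windows. A match is a description of the sequence and not evidence of binding.

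Among the proteins that shape lipid droplets, Cidec differed most. Cidec, also called FSP27, sits where droplets touch and drives their fusion into larger ones, and it is abundant in fat and in fatty liver. It read 3.06, 2.75, 2.93, 2.82 and 2.91 on control arrays 1 to 5 and 4.97, 3.30, 3.64, 3.45 and 4.29 on Jag1+/-Rfng+/- arrays 1 to 5. All 5 Jag1+/-Rfng+/- arrays lay above all 5 controls, with replicates 1 and 5 highest. Of the 38 members Cidec was the only 1 whose groups did not overlap, 2.63% of them, beside 1.38% of all genes. The means were 2.89 ± 0.12 and 3.93 ± 0.69 (log2, SD, n = 5 each), a difference of 1.04 ± 0.27 log2 (SE; limma adjusted p = 0.416; exact permutation p = 0.00794). On 3 control arrays Cidec read within the range of absent genes, so its fold is not bounded by these data. With neither Jag1+/-Rfng+/- replicate 1 nor 5 the difference was 0.57 (limma adjusted p = 0.409), and with the portal fibroblast covariate it was 0.59 with an unadjusted p no longer under 0.05 (limma adjusted p = 0.683). Cidea, the relative that is typical of brown fat, read 1.82 to 2.14 in controls and 2.00 to 2.42 in Jag1+/-Rfng+/-, all within the range of absent genes.

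**Figure D2:**
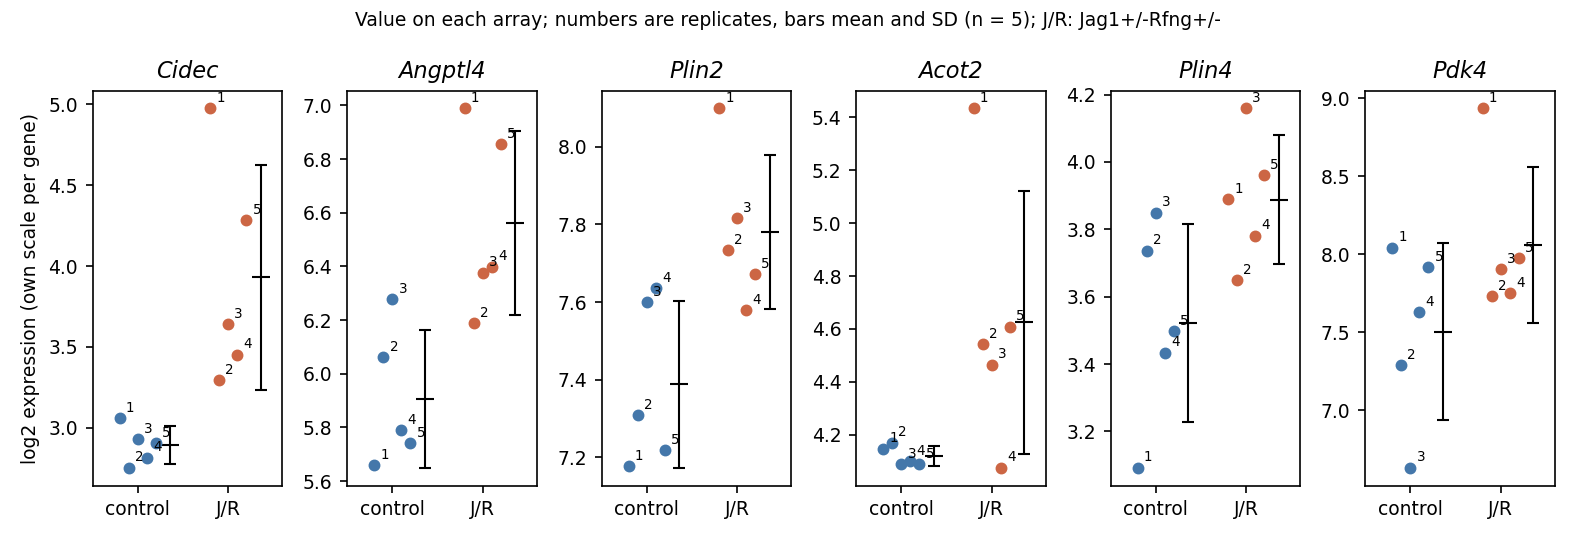
Log2 value on each array, on its own scale per gene, for Cidec, Angptl4, Plin2, Acot2, Plin4 and Pdk4 in control and Jag1+/-Rfng+/- (J/R) arrays; numbers are replicates, and bars give the mean and SD (n = 5). Cidec is apart on all arrays, with Jag1+/-Rfng+/- replicates 1 (4.97) and 5 (4.29) highest, and the other 5 genes overlap between the groups.

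The perilipins, which coat the droplet surface, differed from one another. Plin2, the perilipin found in most cells and the main one of hepatocyte droplets, read 7.18, 7.31, 7.60, 7.64 and 7.22 in controls and 8.10, 7.73, 7.82, 7.58 and 7.67 in Jag1+/-Rfng+/-. Only Jag1+/-Rfng+/- replicate 4 lay within the control range, below controls 3 and 4. The difference was 0.39 ± 0.13 log2 (SE), 1.31-fold (exact permutation p = 0.0238, limma adjusted p = 0.597). Its unadjusted p was no longer under 0.05 with the portal fibroblast covariate, at 0.28, or on the 7 arrays that share a sample-name number, at 0.19. Plin4, a perilipin best known from fat cells, read 3.09, 3.74, 3.85, 3.43 and 3.50 in controls and 3.89, 3.65, 4.16, 3.78 and 3.96 in Jag1+/-Rfng+/-. Here 3 Jag1+/-Rfng+/- arrays exceeded the highest control, and control 1 was lowest. The difference was 0.37 ± 0.15 log2 (SE; exact permutation p = 0.0476, limma adjusted p = 0.685). Without control replicate 1 it was 0.26, with an unadjusted p no longer under 0.05 (limma adjusted p = 0.848), and that p was also lost without control replicate 4 or 5 or without Jag1+/-Rfng+/- replicate 3 or 5.

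Plin5, which links droplets to mitochondria in tissues that burn fat, read 3.61 to 4.25 in controls and 3.84, 4.27, 4.57, 4.02 and 5.02 in Jag1+/-Rfng+/-, highest on replicate 5. Its difference of 0.41 ± 0.21 log2 (SE) had an exact permutation p of 0.127. Leaving out single arrays gave 0.24, without Jag1+/-Rfng+/- replicate 5, to 0.54, without replicate 1, with an unadjusted limma p under 0.05 in 3 of 10 cases. Plin1, the perilipin of fat cells, differed by -0.08, with 3 Jag1+/-Rfng+/- arrays below the lowest control and 1 above the highest. Plin3, which moves between cytosol and droplets, differed by 0.01, and its sign turned when arrays were centred on their medians. Its highest value was 6.46 on control 4, with the other controls at 5.34 to 5.60.

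The lipases of the droplet read in opposite directions. Pnpla2 encodes adipose triglyceride lipase, which starts triglyceride breakdown, and it read 5.14 to 5.92 in controls and 5.52 to 5.94 in Jag1+/-Rfng+/-, a difference of 0.27 ± 0.14 log2 (SE; exact permutation p = 0.119). Pnpla3, a relative that feeding and the lipogenic factor SREBP1 induce, differed by -0.30 ± 0.24 log2 (SE; exact permutation p = 0.365). It read 3.65 on Jag1+/-Rfng+/- replicate 5 against 4.55 to 4.61 on the other 4 arrays of that group and 4.08 to 5.29 in controls. Together the 9 measured droplet genes were 7 higher and 2 lower, with a median of 0.27, and after median centring 6 were higher and 3 lower with a median of 0.25.

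Among the regulators and secreted factors Angptl4 had the lowest p. Angptl4 is a secreted inhibitor of lipoprotein lipase that fasting and PPAR factors induce. It read 5.66, 6.06, 6.28, 5.79 and 5.74 in controls and 6.99, 6.19, 6.38, 6.40 and 6.86 in Jag1+/-Rfng+/-. Replicate 2 was the only Jag1+/-Rfng+/- array within the control range, below control 3, and replicates 1 and 5 were highest. The difference was 0.66 ± 0.17 log2 (SE), 1.58-fold (95% interval 0.28 to 1.04 log2; exact permutation p = 0.0159, limma adjusted p = 0.423). It was 0.42 with neither replicate 1 nor 5 (limma adjusted p = 0.748), and 0.54 with the portal fibroblast covariate (limma adjusted p = 0.629), with an unadjusted p under 0.05 in both. On the 7 arrays that share a sample-name number it was 0.41, and 0.28 without replicate 5 among them, with an unadjusted p no longer under 0.05 in either.

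Pdk4 encodes a kinase that shuts pyruvate dehydrogenase and so spares glucose while fat is burned. It read 8.04, 7.29, 6.63, 7.63 and 7.92 in controls and 8.94, 7.73, 7.90, 7.75 and 7.97 in Jag1+/-Rfng+/-. The groups overlapped, with replicate 1 the only Jag1+/-Rfng+/- array above all controls. The difference was 0.56 ± 0.29 log2 (SE; exact permutation p = 0.159). It was 0.34 without Jag1+/-Rfng+/- replicate 1, 0.34 without control replicate 3 and 0.10 with the portal fibroblast covariate. Fgf21, a hormone that liver releases in fasting and on a fat-rich diet, read 4.5 to 5.58 in controls and 4.95 to 5.80 in Jag1+/-Rfng+/-, a difference of 0.44 ± 0.21 log2 (SE; exact permutation p = 0.119). Without control replicate 2, the highest control at 5.58, its difference was 0.62, with an unadjusted limma p under 0.05 (limma adjusted p = 0.566), and without Jag1+/-Rfng+/- replicate 5 it was 0.33.

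The transcription regulators had no unadjusted limma p under 0.05. Ppara read 6.45 to 7.49 in controls and 6.81 to 7.28 in Jag1+/-Rfng+/-, a difference of 0.01 log2 with a 95% interval of -0.37 to 0.39. Ppargc1a, the coactivator of oxidative genes, read 5.73 to 6.47 in controls and 5.96 to 6.38 on 4 Jag1+/-Rfng+/- arrays, but 7.48 on replicate 5. Its difference was 0.27 ± 0.26 log2 (SE; 95% interval -0.30 to 0.84), smaller than the spread in Jag1+/-Rfng+/- (SD 0.62), and 0.00 without replicate 5. The other 4 arrays all lay within the control range.

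**Figure D3:**
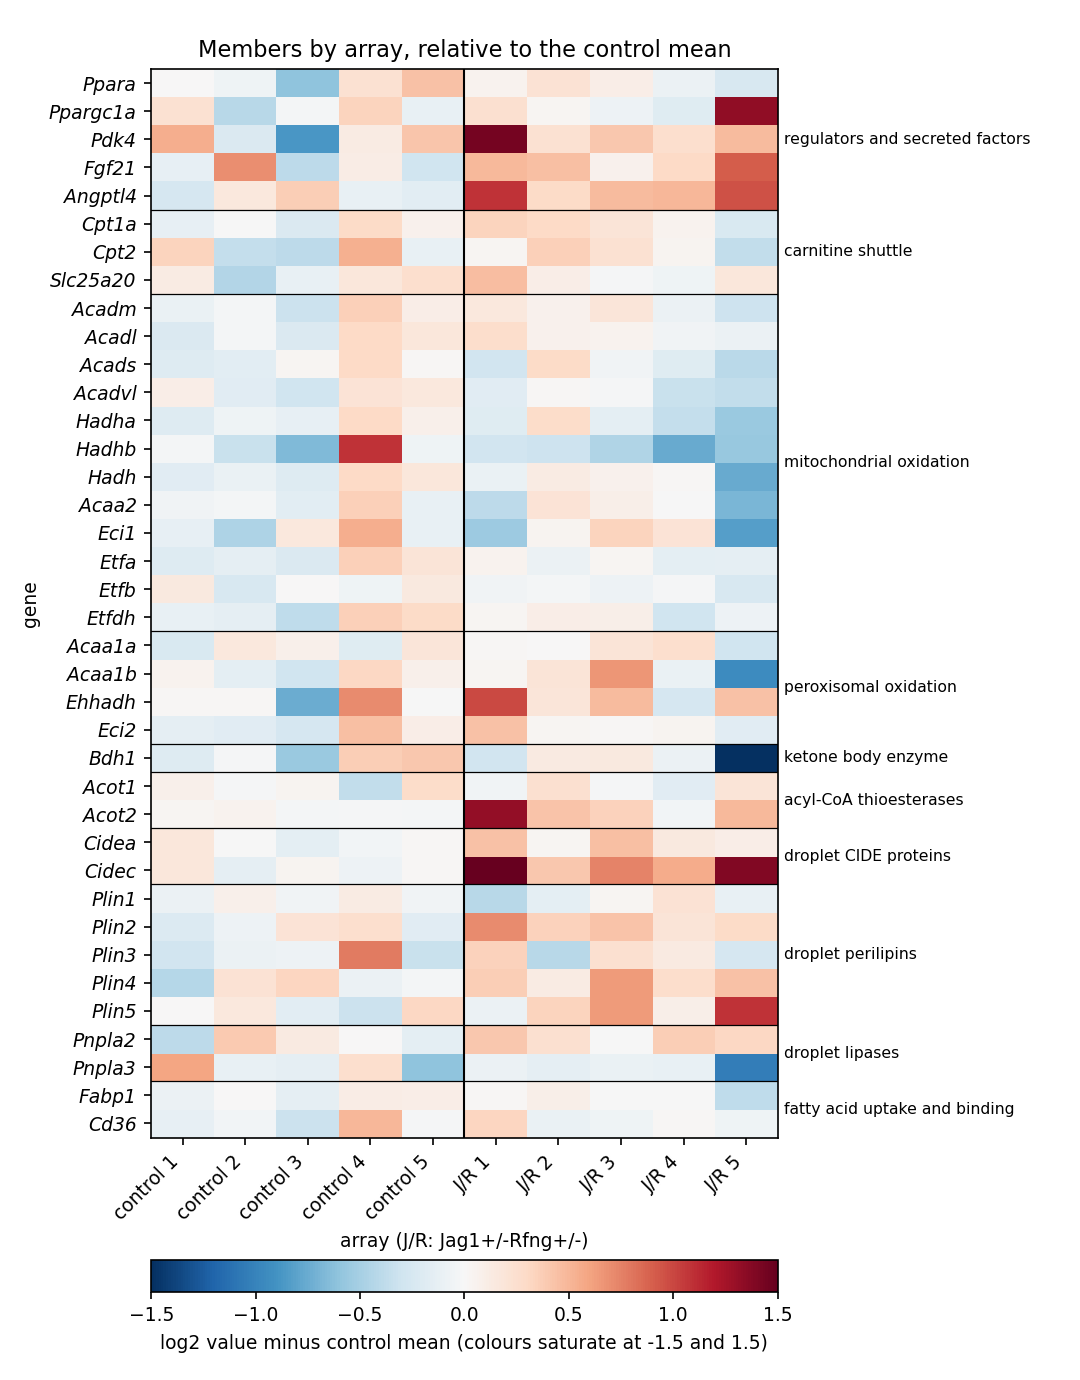
Log2 value of each of the 38 measured members (rows, grouped by role) on each of the 10 arrays (columns; J/R is Jag1+/-Rfng+/-), minus the mean of the 5 controls; colours saturate at -1.5 and 1.5. Cidec, Angptl4, Plin2, Plin4, Pdk4, Fgf21 and Cidea lie above the control mean on all Jag1+/-Rfng+/- arrays, Cidea within the range of absent genes. The mitochondrial oxidation rows are pale on most arrays and bluest on Jag1+/-Rfng+/- replicate 5, and control 4 is the reddest control in that block.

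The carnitine shuttle, which brings long-chain fatty acids into mitochondria, differed by less than the spread between arrays. Cpt1a encodes the liver carnitine palmitoyltransferase, the rate-limiting step of entry, and read 8.38 to 8.88 in controls and 8.37 to 8.93 in Jag1+/-Rfng+/- (difference 0.13, 95% interval -0.16 to 0.42). Cpt2, the inner membrane transferase, differed by 0.06, and Slc25a20, the carrier between both, by 0.13. None of these 3 genes had an unadjusted p under 0.05.

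Of the 12 mitochondrial oxidation genes 10 read lower and 2 higher, with a median of -0.13 log2 and 0 at an unadjusted limma p under 0.05 or an adjusted one. Under quantile, median and cyclic loess scaling, 10, 11 and 9 of them read lower. Among the acyl-CoA dehydrogenases, which take the first step for chains of different length, Acadm and Acadl differed by 0 and 0.05, Acads by -0.13 and Acadvl by -0.18. Hadha and Hadhb encode the subunits of the trifunctional protein, which carries out the later steps for long chains, and differed by -0.19 and -0.47. Hadhb read 4.13, 3.83, 3.50, 5.25 and 4.09 in controls and 3.88, 3.85, 3.71, 3.41 and 3.6 in Jag1+/-Rfng+/-. Control 4 alone lay far above the rest, and without it the difference was -0.20 (limma adjusted p = 0.852). Without control replicate 3, the lowest control, it was -0.64, with an unadjusted limma p under 0.05 (limma adjusted p = 0.719). With the portal fibroblast covariate the Hadhb difference was -0.93 with an unadjusted p under 0.05 (limma adjusted p = 0.528).

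Hadh, the short-chain hydroxyacyl dehydrogenase, Acaa2, the mitochondrial thiolase, and Eci1, an isomerase for unsaturated chains, differed by -0.13, -0.16 and -0.16. The electron transfer flavoprotein genes Etfa and Etfb and the dehydrogenase gene Etfdh, which passes the electrons on to the respiratory chain, differed by -0.06, -0.08 and -0.03. For 13 of the 15 genes of the shuttle and mitochondrial oxidation the 95% interval of the difference lay within 1.5-fold in both directions, and for Hadhb and Eci1 it did not. On Jag1+/-Rfng+/- replicate 5, 6 of the 12 genes read below the lowest control, on replicates 1 and 4, 3 each, and on replicates 2 and 3, 0. Over all genes the shares below the lowest control were 17.1%, 15.9%, 17.2%, 14% and 23.6% on replicates 1 to 5. Without replicate 5, 8 of the 12 read lower with a median of -0.03. Without control replicate 4, whose genes ran high, 8 did with a median of -0.05. With neither replicate 1 nor 5, 6 read lower and 6 higher with a median of -0.01. With array weights 7 read lower with a median of -0.02. On the arrays that share a sample-name number, without replicate 5, 5 read lower and 7 higher with a median of 0.01.

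In the peroxisomal set the members differed little except for Ehhadh. Ehhadh encodes the bifunctional enzyme of the inducible peroxisomal pathway, a classical target of PPAR-alpha. It read 7.71, 7.70, 6.94, 8.40 and 7.68 in controls and 8.68, 7.87, 8.16, 7.43 and 8.13 in Jag1+/-Rfng+/-. The groups overlapped and the difference of 0.37 ± 0.26 log2 (SE) had an exact permutation p of 0.286. Acaa1a and Acaa1b, the paired peroxisomal thiolase genes, differed by 0.03 and -0.03, and Eci2, an isomerase, by 0.07. Acaa1a and Acaa1b are close copies, so their probes may share signal.

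The ketone body enzyme Bdh1 interconverts acetoacetate and 3-hydroxybutyrate. It read 8.11, 8.28, 7.75, 8.67 and 8.71 in controls and 8.01, 8.44, 8.45, 8.22 and 6.76 in Jag1+/-Rfng+/-. Replicate 5 alone lay below the controls, and the difference was -0.33 ± 0.31 log2 (SE; exact permutation p = 0.460). It was -0.02 without that array and 0.07 with neither replicate 1 nor 5. Of 12 other ketone body genes listed 10 were measured, 6 higher and 4 lower, with a median of 0.02. Of these 2 had an unadjusted limma p under 0.05, both lower, where 6.76% of all genes had one. Acat1, the thiolase that joins acetyl units for ketone synthesis and also splits acetoacetyl-CoA, differed by -0.46 ± 0.16 log2 (SE; exact permutation p = 0.0317, limma adjusted p = 0.607). Oxct1, which tissues outside the hepatocyte need to use ketone bodies, differed by -0.34 ± 0.12 (SE; exact permutation p = 0.0317, limma adjusted p = 0.618). On the 7 arrays that share a sample-name number Acat1 and Oxct1 differed by -0.40 and -0.23, with an unadjusted p no longer under 0.05.

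The thioesterases release free fatty acids from coenzyme A, Acot1 in the cytosol and Acot2 in mitochondria, and PPAR-alpha induces both. Acot2 read 4.15, 4.17, 4.09, 4.10 and 4.09 in controls, a spread of 0.04 (SD), and 5.43, 4.54, 4.47, 4.08 and 4.61 in Jag1+/-Rfng+/-. On 4 Jag1+/-Rfng+/- arrays it exceeded all controls, and on replicate 4 it lay below them. The difference was 0.51 ± 0.20 log2 (SE; exact permutation p = 0.0476, limma adjusted p = 0.660). It was 0.30 without replicate 1 (limma adjusted p = 0.681) and 0.24 with neither replicate 1 nor 5, where the unadjusted p was no longer under 0.05 (limma adjusted p = 0.842). With the portal fibroblast covariate it was 0.24, again without such a p. Acot1 differed by 0.04, within 4.53 to 5.18 on all arrays. Acot1 and Acot2 are neighbouring close copies, so signal between their probes may be shared.

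The genes of fatty acid uptake and binding differed little. Fabp1, the abundant fatty acid binding protein of hepatocytes, read 11.23 to 11.47 in controls and 10.98 to 11.45 in Jag1+/-Rfng+/-, a difference of -0.06 with a 95% interval of -0.30 to 0.18. Cd36, the fatty acid translocase, which endothelium and macrophages also carry, differed by 0.02 (95% interval -0.30 to 0.35).

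The 8 lists of other genes of lipid and fasting metabolism hold 175 genes, of which 153 were measured, and 12 of these had an unadjusted limma p under 0.05, 7 higher and 5 lower, with 0 past the adjusted threshold. This is 7.84% of them, near the 6.76% of all genes, and the genes named from these lists are given as values only. Groups did not overlap for 3 of the 153 genes, 1.96% beside 1.38% of all genes. Droplet and triglyceride genes were 17 higher and 10 lower of 27, with a median of 0.12 and 3 at an unadjusted p under 0.05, all higher. Lpin2, a lipin that makes diacylglycerol for triglyceride, read 7.27 to 7.55 in controls and 7.57 to 8.43 in Jag1+/-Rfng+/-, with no overlap (difference 0.55 ± 0.16 log2, SE; exact permutation p = 0.00794, limma adjusted p = 0.482). Hilpda, a droplet protein induced by low oxygen and by fatty acids that restrains adipose triglyceride lipase, differed by 0.66 ± 0.22 (SE; exact permutation p = 0.0238, limma adjusted p = 0.597). Lipe, hormone-sensitive lipase, differed by 0.27 (exact permutation p = 0.0476).

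Of 24 measured targets and partners of PPAR-alpha 17 read higher and 7 lower, with a median of 0.08 and 2 at an unadjusted p under 0.05. Cyp4a14, a fatty acid omega-hydroxylase and strongly inducible target of that receptor, differed by 0.57 ± 0.19 log2 (SE; exact permutation p = 0.0159, limma adjusted p = 0.597). Members of the Cyp4a family are near copies of one another, so this signal may be shared. Krt23, a keratin, differed by 0.77 ± 0.19 (SE; exact permutation p = 0.0238, limma adjusted p = 0.337). Ppargc1b, a coactivator related to Ppargc1a, read 3.59 to 3.80 in controls and 3.87 to 3.99 in Jag1+/-Rfng+/-, with no overlap and a limma adjusted p of 0.738. Foxo1, a transcription factor that insulin signalling restrains, read 5.80 to 5.93 in controls and 5.48 to 5.80 in Jag1+/-Rfng+/-, lower with no overlap before rounding (limma adjusted p = 0.775).

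The other lists had few such genes. Of the other mitochondrial genes 20 were measured, and Slc22a5, the carnitine importer, differed by 0.62 and Acadsb, a branched-chain dehydrogenase, by -0.38 (exact permutation p = 0.103 and 0.0635). Among 25 other peroxisomal genes 0 had a limma p under 0.05, adjusted or not, and their differences ran from -0.27 to 0.21. The lipogenesis list was 7 higher and 12 lower of 19, with a median of -0.05. In it Acly, which makes cytosolic acetyl-CoA from citrate, and Acss2, which makes it from acetate, differed by -0.35 and -0.53 (exact permutation p = 0.0397 and 0.0714). Of 14 genes of lipoprotein and fatty acid uptake 0 had a limma p under 0.05, adjusted or not. Of 14 genes of gluconeogenesis and fasting 1 did, unadjusted. It was Igfbp1, a fasting-induced binding protein of insulin-like growth factors, which differed by 0.45 (exact permutation p = 0.0794).

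The submitters' sample names carry a number whose meaning is not given and which could mark a batch. A single number occurs in both groups, on 3 control and 4 Jag1+/-Rfng+/- arrays. Within these 7 arrays 3 members had an unadjusted limma p under 0.05, 7.89% of them beside 5.54% of all genes. Cidec differed by 0.84 (limma adjusted p = 0.815), Pdk4 by 0.66 (limma adjusted p = 0.823) and Plin5 by 0.64 (limma adjusted p = 0.848). Cidec, Pdk4 and Cidea were the members whose groups did not overlap there, all higher. They are 7.89% of the members, beside 3.17% of all genes apart and higher. Cidea read within the range of absent genes on all arrays. Angptl4 differed by 0.41, Acot2 by 0.30, Plin4 by 0.21 and Plin2 by 0.19, and these 4 no longer had an unadjusted p under 0.05. No other number is on more than 1 array, so none gives a value.

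Marker lists of other cells also read differently between the groups. The mean of the 16 measured portal fibroblast markers, relative to the control average, ran from -0.56 to 0.38 in controls and from -1.16 to -0.02 in Jag1+/-Rfng+/-, with 12 of 16 markers lower. Its lowest values, -1.0 and -1.16, fell on Jag1+/-Rfng+/- replicates 1 and 5, the arrays highest for Cidec and Angptl4. The marker mean was 0.02, 0.29, 0.38, -0.56 and -0.14 on control arrays 1 to 5. On Jag1+/-Rfng+/- arrays 1 to 5 it was -1.0, -0.29, -0.62, -0.02 and -1.16. Among the controls Angptl4 was highest, at 6.28, on control 3, where the marker mean was highest, and Cidec ran from 2.75 to 3.06. The biliary list also read lower, with 8 of 10 markers lower, from -0.37 to 0.56 in controls and -0.95 to -0.37 in Jag1+/-Rfng+/-, and Cftr within the range of absent genes on all arrays. The part of these cells in the differences was not tested. The portal fibroblast covariate itself read lower on average in Jag1+/-Rfng+/-, so fits with it cannot cleanly separate these cells from the genotype.

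**Figure D4:**
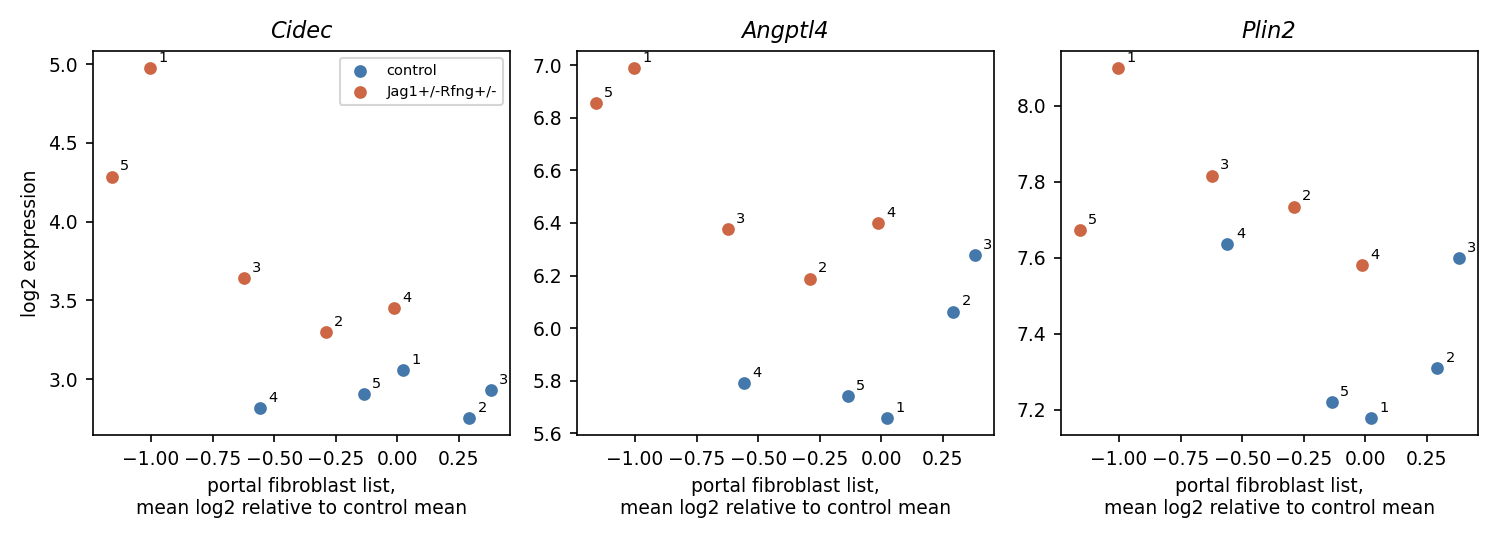
Log2 value of Cidec, Angptl4 and Plin2 (vertical axes) against the mean of the 16 portal fibroblast markers relative to the control average (horizontal axis, log2) on each of the 10 arrays, numbered by replicate. Jag1+/-Rfng+/- replicates 1 and 5 lie at the left with the highest Cidec and Angptl4. Among the controls Angptl4 is highest on control 3, which lies farthest to the right.

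Hepatocyte markers differed less, with a list mean of -0.17 to 0.15 in controls and -0.19 to 0.08 in Jag1+/-Rfng+/-, 12 of 17 lower and 0 at an unadjusted limma p under 0.05 or an adjusted one. With that mean as a covariate Cidec differed by 1.03 and Angptl4 by 0.59. The 13 macrophage markers ran from -0.34 to 0.27 in controls and from -0.24 to 0.74 in Jag1+/-Rfng+/-, 12 of them higher and the highest value on replicate 1. The 11 neutrophil markers ran from -0.36 to 0.26 in controls and from 0.02 to 0.52 in Jag1+/-Rfng+/-, 6 of them higher, and 4 granule enzyme genes had an unadjusted limma p under 0.05, Ctsg at 1.31, Prtn3 at 0.82, Elane at 0.80 and Mpo at 0.65. The 9 stellate cell markers ran from -0.06 to 0.08 in controls and from -0.48 to 0.04 in Jag1+/-Rfng+/-. Of them 4 read higher and 5 lower. Those with an unadjusted limma p under 0.05 were Rgs5 at -0.87, Pdgfrb at -0.95 and Ecm1 at 0.44. The part of these cells in the results was not tested. Of the 8 white fat cell markers measured Adipoq and Lep read within the range of absent genes on all arrays and 5 above it, with a list mean of -0.14 to 0.14 in controls and -0.08 to 0.16 in Jag1+/-Rfng+/-. Of the 8, 6 read higher, among them Lipe by 0.27 and Fabp4 by 0.56, and Aoc3 differed by -1.01. Of the 6 brown fat markers 4 read higher and 2 lower, and Ucp1 and Elovl3 read within the range of absent genes on all arrays. The 4 measured erythroid markers stood at 2.28 on Jag1+/-Rfng+/- replicate 5, against -0.52 to 0.49 in controls and -0.40 to 0.23 on the other arrays of its group.

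**Figure D5:**
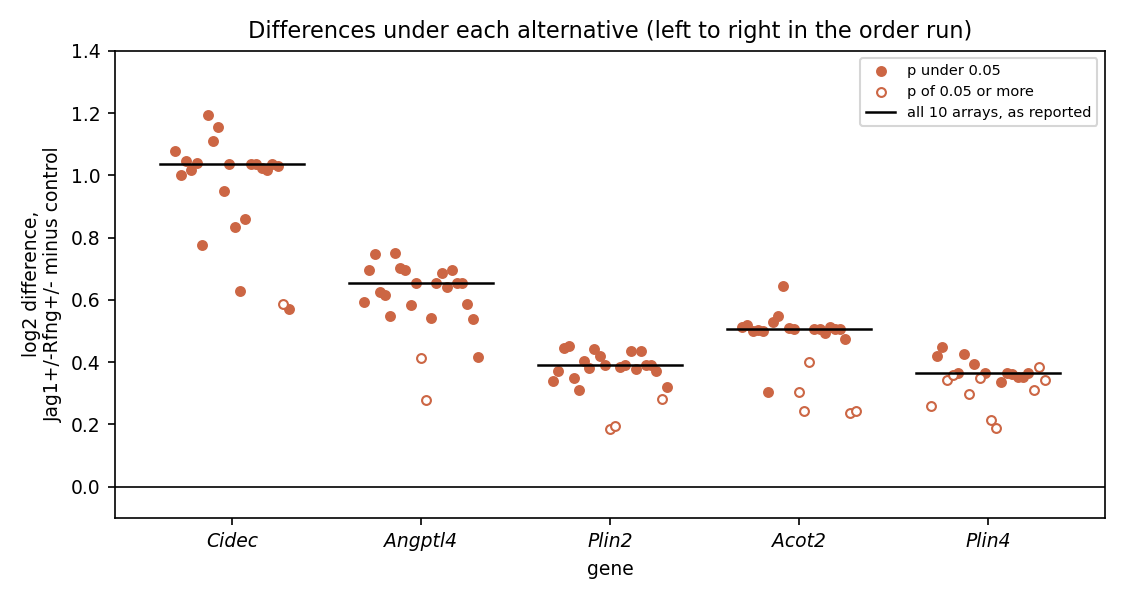
Log2 difference, Jag1+/-Rfng+/- minus control (vertical axis), of the 5 members with an unadjusted p under 0.05 under each alternative processing or choice of arrays (points, from left to right in the order run); lines mark the value with all 10 arrays, and open points have an unadjusted p of 0.05 or more. All points lie above 0, Cidec has 1 open point, at 0.59 with the portal fibroblast covariate, and Plin4 has the most.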

How the data were processed

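The authors deposited log2 expression values of 33649 probe sets on 10 arrays. The submitters' processing notes name RMA and Partek 6.6, with no role for either. RMA compresses the folds of dim genes, and no detection calls were used. There were 0 columns that belong to no sample and 0 identical pairs of arrays. By the platform annotation 1 symbol was given for 23521 probe sets, several for 1814 and none for 8314, and 23328 of the first matched RefSeq (GRCm38.p6) by Entrez identifier. Where a gene had several probe sets, the brightest on average was used, which left 22180 genes.

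Differences were tested in limma 3.58.1 (R 4.3.3; lmFit, then eBayes, two-sided, with neither covariate nor filter), adjusted by Benjamini-Hochberg over all genes at 0.05, and for single genes by an exact permutation test over all 252 splits. The fit was tested on simulated data. The genes named are all members, up to 4 genes of each pathway list by lowest unadjusted p, and Jag1 and Rfng. Foxo1, whose groups did not overlap, and some cell markers are named besides. Members and lists were chosen with earlier results of these data known, and the alternative without Jag1+/-Rfng+/- replicates 1 and 5 after the values were seen. The sources do not say how tracts were picked. Alternatives changed the scaling, filter, model or arrays. Planned protein comparisons were not made, since protein sequences were not used here.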

Additional observations from a re-analysis of the deposited data

Results flagged for a closer look

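Among the 76 sets of 5 arrays formed by the 38 members in each group, 10 held an array far from the other 4 by Dixon's test at 95%, where chance gives about 3.8. Of these, 6 fell on Jag1+/-Rfng+/- replicate 5, the array that stands apart as a whole. It was highest for Ppargc1a, at 7.48 against 5.96 to 6.38 on the other arrays of its group. It was lowest for Bdh1 (6.76 against 8.01 to 8.45), Pnpla3 (3.65 against 4.55 to 4.61), Hadh (9.03 against 9.69 to 9.90), Fabp1 (10.98 against 11.35 to 11.45) and Etfb (8.86 against 9.02 to 9.08). Jag1+/-Rfng+/- replicate 1 was highest for Pdk4, at 8.94 against 7.73 to 7.97, and for Cd36, at 7.95 against 7.53 to 7.64. Control replicate 4 was highest for Acaa2 (10.12 against 9.61 to 9.74) and for Plin3 (6.46 against 5.34 to 5.60).

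On Jag1+/-Rfng+/- replicate 5, 8 of the 38 members read above the highest control and 13 below the lowest, where 20.5% of all genes read above and 23.6% below. On replicate 1, 11 read above and 4 below, where all genes gave 19.7% and 17.1%.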

How the results depend on the processing

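Each member's difference was recomputed under up to 23 alternatives. The 5 members with an unadjusted limma p under 0.05 kept their direction under every alternative that measured them, while that p was lost under 1 alternative for Cidec, 2 for Angptl4, 3 for Plin2, 5 for Acot2 and 10 for Plin4. No adjusted p of theirs was under 0.318. The count of 5 members became 3 within the 7 arrays that share a number, with or without Jag1+/-Rfng+/- replicate 5. This was 7.89% of the members, beside 5.54% of all genes with that replicate and 5.48% without it. Among genes above the median level it was 3 of only 34 members tested, 8.82% beside 7.65% of the genes tested, with Cidec and Plin4 filtered out. It was 3 with neither Jag1+/-Rfng+/- replicate 1 nor 5, 7.89% beside 6.17% of all genes. With the portal fibroblast covariate it was 2, 5.26% beside 7.61%. Leaving out single arrays gave 5 to 7, 13.2% to 18.4% beside 6.0% to 7.11%. The 12 other pathway genes became 5 with the portal fibroblast covariate, 3.27% beside 7.61% of all genes. The 33 members without such a p gave 757 values, of which 730 moved by less than the replicate SD, 4 by more and 23 gained such a p in the same direction.

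The labels do not say whether the replicate numbers pair the samples. Same-numbered deviations correlated at -0.23 to 0.06 and differently numbered ones at -0.20 to 0.25, which cannot settle it. With the replicate numbers as a block 7 members had an unadjusted p under 0.05 (Pdk4 and Plin5 besides the 5). This was 18.4% of them beside 6.58% of all genes. In that fit 11 other pathway genes had such a p, 7.19% of those measured. There 2 genes passed the adjusted threshold and the median of the members was 0.03.

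Over all genes, 2 passed the adjusted threshold and 2 to 6 did without single arrays (6 without Jag1+/-Rfng+/- replicate 2, 5 without control replicate 4, 4 without control replicate 5). It was 5 with array weights, 11 with trend and robust eBayes, 11 among genes above the median level, 20 with the hepatocyte covariate, 1 with the portal fibroblast covariate and 0 in limma among the 3 against 3 arrays with the shared number and no replicate 5, where 1215 genes had an unadjusted p under 0.05. The cause was not tested. Leaving out single arrays gave Jag1 differences of -1.61 to -1.11 and Rfng differences of -0.51 to -0.38. Within the arrays of that number Rfng differed by -0.38 (exact permutation p = 0.0571). Without replicate 5 it differed by -0.41 (exact permutation p = 0.1, the smallest that 3 against 3 can give). On the same arrays Jag1 differed by -1.37 (exact permutation p = 0.171), and without replicate 5 by -1.08 (exact permutation p = 0.4). Dim probe sets near the range of absent genes limit what can be said of Cidec and Cidea.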
